A study of Mus musculus with 157 samples.

Results

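The genes described here encode the receptor complex for lipopolysaccharide (LPS), its B cell relative, the endosomal DNA receptor TLR9 and the adaptor chain behind them. They are Tlr4, Ly96, Cd180, Ly86, Tlr9, Myd88, Ticam1, Irak1, Irak4 and Traf6, taken by gene symbol from the read count table, and make up 10 of its 19600 genes. Primary B cells were isolated from the spleens of C57BL/6Babr mice aged 8 to 12 weeks and cultured in 3 ways, with no gene deleted in any group. The LPS group received LPS at 10 µg/ml for 48 h. The LPS+ET group also received 20 µM etoposide, a topoisomerase II poison that breaks DNA, for 4 h. In the LPS+ET+KU group 10 µM KU55933, an inhibitor of the DNA damage kinase ATM, was added after 47 h of LPS and 1 h before etoposide. All cells had therefore been exposed to LPS, and unstimulated B cells were not analysed here. The comparisons thus show what etoposide, and the inhibitor added to it, changed in cells already activated through this pathway. No group received KU55933 without etoposide. An effect of the inhibitor itself thus cannot be told apart from one on the response to damage. The cells were purified with a commercial isolation kit and were not a clonal line.

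TLR4 binds the lipid A part of LPS together with MD-2, the product of Ly96. At the cell surface the complex signals through the adaptor MyD88 to the kinases IRAK4 and IRAK1 and the ubiquitin ligase TRAF6, which lead to NF-kB. From endosomes it signals through the adaptor TRIF, the product of Ticam1, towards interferon regulatory factors. CD180, also called RP105, resembles the outer part of TLR4 but lacks its signalling domain, pairs with MD-1 (the product of Ly86) and is abundant on B cells. TLR9 recognises unmethylated CpG DNA in endosomes, also through MyD88.

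Each culture was separated on a sucrose gradient, and the poly(A) mRNA of fractions 4 to 16 was sequenced by PolyRibo-3′ RNA-seq. In this method a read marks the 3′ end of an mRNA and duplicates are removed by molecular barcode, so a gene's count does not grow with its length. Fractions 4 to 7 hold mRNA with a lone ribosome (monosomes), 8 to 10 light polysomes and 11 to 16 heavy polysomes, in which an mRNA carries many ribosomes. There were 4 gradients per treatment, 12 in all, with 13 fractions each. The column headers carry 4 tags (LUL15, LUL16, LUL17 and LUL18), called pools here, that each cover 1 gradient of every treatment. The labels do not say what the tag stands for, so replicate and sequencing batch cannot be told apart. Gradients are named below by treatment and pool, and lists of 4 values follow that pool order. Library totals ran from 14724 to 4170688 counts with a median of 811932, and gradient totals from 6404957 to 21449781. The LPS+ET gradient of pool LUL16 stood apart: heavy polysomes held 30.42% of its counts, against 60.55% to 68.22% in the other LPS+ET gradients, and it had the lowest total.

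The translation start sites of Irak1, Ticam1, Cd180, Irak4 and Tlr9 are given below. They are shown because the position of an mRNA along the gradient depends on how often ribosomes start and on coding length. The sequences are from the principal transcripts of GENCODE M21 on GRCm38, each with 9 bases before and 9 after the start codon, which is in capitals.
Irak1: gcggcggccATGgccgggggg
Ticam1: cccccatccATGgataaccca
Cd180: ggacctgggATGgctccggac
Irak4: aagtagaagATGaacaagccg
Tlr9: tctcccaacATGgttctccgt
Irak1 and Ticam1 are shown since they lay in lighter fractions than mRNAs of like coding length, Irak4 and Tlr9 since they lay in heavier ones, and Cd180 since its level changed most. A purine 3 bases before the ATG, the strongest single feature of a favourable start, was present in 9 of the 10 genes, against 85% of 19730 protein-coding genes. Ticam1 was the exception. A G directly after the ATG was present in 4 of 10 (Irak1, Cd180, Ticam1 and Tlr9), against 49.7% of all genes.

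The 10 genes lie at chr4:66827584-66930284 (Tlr4, plus strand), chr1:16688456-16709605 (Ly96, plus), chr13:102693558-102739629 (Cd180, plus), chr13:37345345-37419036 (Ly86, plus), chr9:106222598-106226876 (Tlr9, plus), chr9:119335934-119341411 (Myd88, minus), chr17:56269319-56276786 (Ticam1, minus), chrX:74013914-74023848 (Irak1, minus), chr15:94543643-94581815 (Irak4, plus) and chr2:101678429-101701669 (Traf6, plus) of GRCm38. Ly96, Ly86, Myd88 and Ticam1 were each counted at 1 polyadenylation site in an untranslated exon. Cd180 was counted at 4 sites, of which the main site took 74.9% of its counts and lay 135 bases past the end of the principal transcript. Of the 6 sites of Tlr4, 4 lay inside the gene but 1742 to 4301 bases past the end of that transcript. All 3 sites of Tlr9 lay 1217 to 2148 bases past its transcript end, outside the gene. Whether the tags at these sites of Tlr4 and Tlr9 come from their transcripts was not tested. Irak1 was counted at 3 sites, none within an exon of its principal transcript. The main site, with 64.5% of the counts, lay 8 bases past the end of that transcript. The others, with 21.1% and 14.5%, lay in untranslated exons at −884 and −356 bases from that end. Which Irak1 transcripts these tags come from was not tested.

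In LPS-activated B cells the accessory protein of CD180 gave the most abundant of these mRNAs and the LPS receptor itself the least abundant. Levels are counts summed over fractions 4 to 16 scaled to the gradient's total and given as CPM, and are compared between genes without length scaling because a read marks a 3′ end. Ly86 stood at 407.9 ± 91.2 CPM (SD, n = 4) and Tlr4 at 6.64 ± 0.73 CPM (SD, n = 4). Ly86 exceeded 98.1% of all genes in the table and Tlr4 59.6%. Between them came Irak1 at 252.6 ± 41.2 CPM, Myd88 at 117.5 ± 17.0, Cd180 at 78.1 ± 6.76, Ticam1 at 56.5 ± 6.91, Ly96 at 46.2 ± 7.72, Irak4 at 31.3 ± 7.87, Tlr9 at 13.4 ± 1.57 and Traf6 at 12.4 ± 1.76. Neighbours in this order had separate ranges over the 4 gradients, except Ticam1 and Ly96, Ly96 and Irak4, and Tlr9 and Traf6, whose ranges overlapped. Each receptor was far below its secreted partner: the Tlr4 to Ly96 ratio was 0.149 ± 0.0442 and the Cd180 to Ly86 ratio 0.202 ± 0.0625. The depth behind Tlr4 was thin, with 36 to 141 counts per gradient. Every other gene averaged over 100 counts, but Tlr9 had only 54 to 244 per gradient and Traf6 90 to 380. After etoposide Ly86, Irak1 and Myd88 had overlapping ranges at the top, and Cd180 had dropped from rank 4 to rank 7. With the inhibitor Irak1 ranked first at 284.4 ± 29.3 CPM and Cd180 ranked 8.

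**Figure D1:**
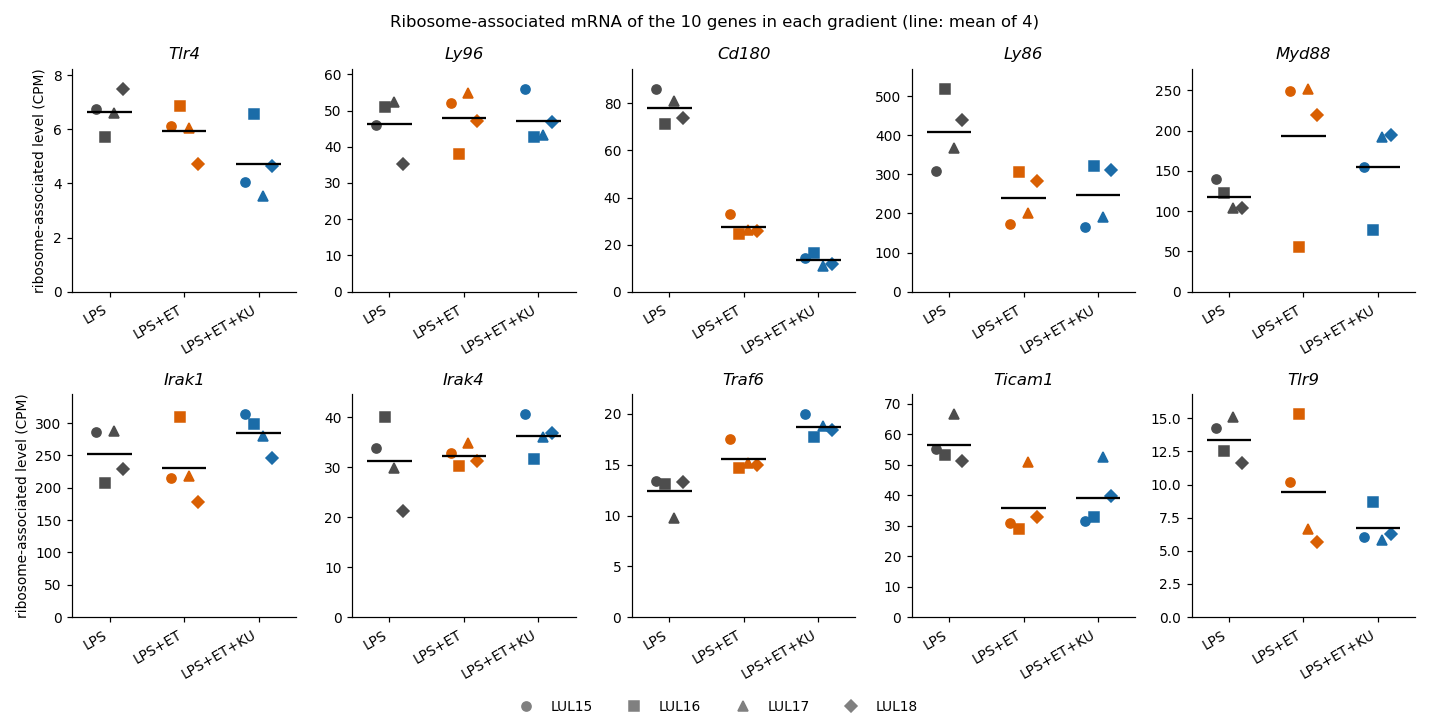
Ribosome-associated level (CPM, y axis from 0) of each of the 10 genes in the 12 gradients, 4 for each treatment. Points are gradients with a symbol per pool and the line is the mean. Cd180 steps down from 78.1 to 27.4 and 13.4 CPM with no overlap between treatments, while the Myd88 point of LPS+ET pool LUL16 sits at 55.9 CPM, below the other 3.

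The question of the treatments was which mRNAs changed their association with ribosomes after DNA damage, and whether ATM was needed. Of the 10 genes, Cd180 fell in every comparison in the test of summed fractions, and it was the only gene called without the pool in the model. With the pool as a replicate block Ly86 and Ticam1 were also called lower in both comparisons with LPS, and Tlr9 for LPS+ET+KU against LPS, with the values given below. The 3 comparisons share gradients with each other. Cd180 was measured at 86.2, 71.5, 81.0 and 73.8 CPM in the LPS gradients. After etoposide it was at 32.8, 24.7, 26.2 and 25.7 CPM. With KU55933 and etoposide it was at 14.2, 16.4, 11.1 and 11.95 CPM. The 3 groups did not overlap, and each step down was seen in 4 of 4 pools. The fall after etoposide was 3.1-fold (log2 −1.63, SE 0.15, adjusted p = 7.45e-06, edgeR quasi-likelihood test, Benjamini-Hochberg over 12755 genes). With the inhibitor it fell a further 2.03-fold relative to etoposide alone (log2 −1.02, SE 0.15, adjusted p = 0.00414), and it was 6.29-fold lower than in LPS (log2 −2.65, SE 0.15, adjusted p = 6.70e-07). Of 10 B cell markers, 3 also fell after etoposide, named here after their values were seen: Cd22, an inhibitory receptor (log2 −2.12, SE 0.40, adjusted p = 0.00171), Cr2, a complement receptor (−1.32, SE 0.26, adjusted p = 0.00233) and the protein-coding row of Ebf1, a B cell transcription factor (−2.0, SE 0.21, adjusted p = 2.39e-05). The same 3 fell with the inhibitor against LPS, by 1.82, 1.24 and 1.78 on the log2 scale. Of the 10 markers, 4 and 3 were called with DESeq2 in these comparisons and 6 and 5 with the replicate block. Between LPS+ET+KU and LPS+ET, where Cd180 fell further, 0 of the 10 were called by edgeR with or without the block or by DESeq2, and 0 had an unadjusted p under 0.05. The call of Cr2 after etoposide was lost without LPS+ET LUL18 or with equal weight per fraction (adjusted p up to 0.0533), and with the inhibitor those of Cd22 and Cr2 were lost in 8 and 6 of 19 alternatives, while Ebf1 kept both calls in all 19. The part of the makeup of the cells in the Cd180 fall was not tested. In these bulk samples fewer cells with the mRNA and less mRNA per cell cannot be told apart, and total mRNA was not analysed here. The comparison of LPS+ET+KU with LPS+ET lost its call (threshold adjusted p 0.01) when any of 8 gradients was left out: LPS LUL15 or LUL18, or the LUL15, LUL17 or LUL18 gradient of LPS+ET or of LPS+ET+KU. The adjusted p then ran up to 0.0264, and over all alternatives from 3.66e-08 to 0.0440. Both other falls of Cd180 kept their call in all 19 alternatives.

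Against this single call without the block, edgeR called 12.7% of all genes for LPS+ET against LPS (1005 higher, 613 lower), 0.455% for LPS+ET+KU against LPS+ET (28 higher, 30 lower) and 10.7% for LPS+ET+KU against LPS (797 higher, 564 lower). The split leaned further to higher calls when each fraction was given equal weight, at 804 higher and 255 lower, 9 and 4, and 649 and 164. The share of the 10 genes called, 1 of 10 in each comparison, was thus close to the background in the comparisons with LPS. The median log2 change of the 10 was −0.26, 0.0051 and −0.34, beside 0.026, 0.037 and 0.094 over all genes tested. An unadjusted p under 0.05 was reached by 4, 1 and 6 of the 10 genes, and 1, 1 and 2 were called with DESeq2. The groups did not overlap for Traf6 (higher) and for Cd180, Ly86 and Ticam1 (lower) after etoposide, as was the case for 26.4% of all genes. For LPS+ET+KU against LPS+ET the same held for Traf6 (higher) and Cd180 (lower), with a background of 8.26%. For LPS+ET+KU against LPS it held for Traf6 (higher), Cd180 and Tlr9 (lower), with a background of 26.3%.

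**Figure D2:**
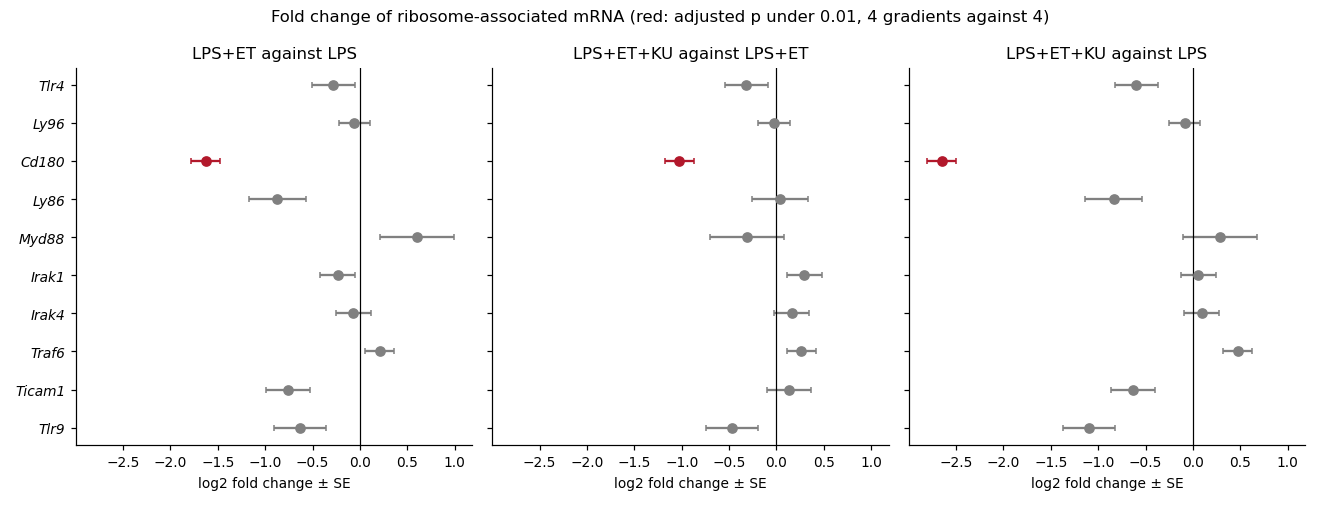
Log2 fold change of ribosome-associated mRNA with its SE (x axis) for each of the 10 genes (y axis) in the 3 comparisons of 4 gradients with 4. Red marks an adjusted p under 0.01 without the pool in the model. Cd180 is the only red point, at −1.63, −1.02 and −2.65.

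Ly86, whose product holds CD180 at the cell surface, was lower in both etoposide groups in every pool, but its gradients differed widely. It was at 307.8, 518.4, 366.1 and 439.2 CPM with LPS. It was at 172.0, 305.4, 201.1 and 281.8 CPM after etoposide. With the inhibitor it was at 165.4, 320.6, 191.6 and 311.9 CPM. Pool LUL16 was the highest and LUL15 the lowest of every treatment, so the spread within a treatment followed the pool. Without the pool in the model the change after etoposide was log2 −0.87 (SE 0.30, adjusted p = 0.0514). That of LPS+ET+KU from LPS was −0.84 (SE 0.30, adjusted p = 0.0602), and neither was past the threshold. With the pool as a replicate block both were called, at −0.91 (adjusted p = 6.33e-05) and −0.88 (adjusted p = 1.03e-04). The Cd180 to Ly86 ratio went from 0.202 ± 0.0625 to 0.123 ± 0.0498 and 0.0584 ± 0.0202 (SD, n = 4), since Cd180 fell by more.

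Neither component of the LPS receptor passed the test in any comparison. Tlr4 was at 6.74, 5.71, 6.62 and 7.49 CPM with LPS. It was at 6.11, 6.87, 6.05 and 4.70 CPM after etoposide, and at 4.04, 6.57, 3.55 and 4.66 CPM with the inhibitor. The ranges of the groups overlapped throughout, and the largest difference, LPS+ET+KU against LPS, was log2 −0.60 (SE 0.23, adjusted p = 0.0715) at 36 to 141 counts per gradient. Ly96 had means of 46.2, 48.0 and 47.2 CPM with SDs of 6.13 to 7.72, and log2 changes between −0.09 and −0.03, with SEs of 0.17. The direction depended on the scaling: the CPM was higher after etoposide in 3 of 4 pools, while the change fitted with TMM scaling was negative (log2 −0.06, adjusted p = 0.844).

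Tlr9 was lower in LPS+ET+KU than in LPS in 4 of 4 pools and just missed the threshold. It was at 14.3, 12.6, 15.1 and 11.6 CPM with LPS. It was at 6.06, 8.67, 5.85 and 6.24 CPM with the inhibitor, all below the LPS range, and at 10.2, 15.3, 6.68 and 5.64 CPM after etoposide alone. By summed counts the gradient LPS+ET LUL16 was thus the highest Tlr9 value of all 12. Of its 98 counts 35 came from the fraction 5 library. With equal weight per fraction it was at 14.4 CPM, below LPS LUL15 (16.6 CPM) and LPS LUL16 (16.5 CPM). The difference of LPS+ET+KU from LPS was 2.14-fold (log2 −1.10, SE 0.28, adjusted p = 0.0123), and with the pool as a replicate block it was called at −1.13 (adjusted p = 7.67e-04). It was also called without LPS+ET LUL16 (adjusted p = 0.00219) and without LPS+ET+KU LUL16 (adjusted p = 0.00804), and the adjusted p over all alternatives ran from 7.67e-04 to 0.0380. The difference after etoposide alone was log2 −0.63 (SE 0.27, adjusted p = 0.121). Without the LPS+ET LUL16 gradient it was −0.98 and was called (adjusted p = 0.00644), as it was without all 3 gradients of that pool (−0.98, adjusted p = 0.00481), within a range of 0.00481 to 0.293 over all alternatives.

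Of the adaptors, Myd88 was higher after etoposide in 3 of 4 pools. It was at 139.4, 122.5, 103.8 and 104.4 CPM with LPS. After etoposide it was at 248.7, 55.9, 251.7 and 218.8 CPM. The 3 other LPS+ET gradients exceeded all LPS gradients, while LPS+ET LUL16, the gradient with few heavy polysome counts, was below them. The change over all gradients was log2 0.60 (SE 0.39, adjusted p = 0.312). Without LPS+ET LUL16 it was 0.90 (adjusted p = 0.0312) and without all 3 gradients of that pool it was 0.94, which passed the threshold (adjusted p = 0.00294), and over all alternatives the adjusted p ran from 0.00294 to 0.550. With the inhibitor Myd88 was at 154.7, 76.0, 192.4 and 194.3 CPM, again lowest in LUL16, and its change from LPS was 0.29 (SE 0.39, adjusted p = 0.627).

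Ticam1 was lower in both etoposide groups in 4 of 4 pools. It was at 55.0, 53.2, 66.6 and 51.1 CPM with LPS. It was at 31, 29.04, 50.8 and 32.8 CPM after etoposide and at 31.5, 32.9, 52.6 and 39.8 CPM with the inhibitor. Pool LUL17 was the highest of every treatment. The 1.69-fold difference after etoposide (log2 −0.76, SE 0.23, adjusted p = 0.0305) did not pass the threshold, and the pool as a replicate block brought it past (−0.82, adjusted p = 3.17e-04). Leaving out LPS+ET LUL17 did the same (−0.99, adjusted p = 0.00842), within a range of 3.17e-04 to 0.0861. For LPS+ET+KU against LPS the change was −0.63 (SE 0.23, adjusted p = 0.0648), called with the block at −0.68 (adjusted p = 0.00128). The Ticam1 to Myd88 ratio was 0.490 ± 0.108 with LPS, 0.249 ± 0.183 after etoposide and 0.279 ± 0.108 with the inhibitor, and the LUL16 ratio after etoposide, 0.520, stood above the other 3 (0.125, 0.202 and 0.150).

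Traf6, the ubiquitin ligase, was higher by summed counts in both etoposide groups than in LPS in every pool, but was not called. It was at 13.4, 13.1, 9.76 and 13.3 CPM with LPS. It was at 17.6, 14.7, 15.2 and 15.0 CPM after etoposide and at 20.0, 17.7, 18.8 and 18.4 CPM with the inhibitor. No 2 groups overlapped in these levels, and the difference of LPS+ET+KU from LPS was 1.39-fold (log2 0.47, SE 0.15, adjusted p = 0.0388). The separation depended on the scaling. With equal weight per fraction the ranges overlapped, at 11.1 to 16.3 CPM with LPS, 11.8 to 16.6 after etoposide and 15.0 to 17.3 with the inhibitor. In LUL17 Traf6 was then lower after etoposide (11.8 CPM) than with LPS (16.3 CPM). Neither kinase passed the test. Irak1 had means of 252.6, 230.6 and 284.4 CPM (SDs 41.2, 55.9 and 29.3) and Irak4 of 31.3, 32.3 and 36.3 CPM (SDs 7.87, 1.98 and 3.71), and all 6 of their adjusted p values were at least 0.415. With the replicate block, 3 of the 10 genes were called for LPS+ET against LPS (Cd180, Ly86, Ticam1; all genes 25.9%), 1 for LPS+ET+KU against LPS+ET (Cd180; all genes 6.1%) and 4 for LPS+ET+KU against LPS (Cd180, Ly86, Ticam1, Tlr9; all genes 26.8%).

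Cd180 was lower in every part of the gradient, and its difference from LPS was called in each except in monosomes after etoposide alone. In light polysomes it was −1.69 on the log2 scale after etoposide (SE 0.17, adjusted p = 1.14e-05) and −2.46 with the inhibitor against LPS (SE 0.17, adjusted p = 2.74e-06). In heavy polysomes the corresponding values were −1.63 (SE 0.19, adjusted p = 4.61e-05) and −2.84 (SE 0.20, adjusted p = 1.72e-06). In monosomes it was −1.0 after etoposide, which did not pass the threshold (SE 0.32, adjusted p = 0.0418), and −1.47 with the inhibitor (SE 0.31, adjusted p = 0.00566). The monosome value after etoposide was called with the replicate block (−1.08, adjusted p = 0.00229) and without LPS+ET LUL16 (−1.47, adjusted p = 0.00523), and over its alternatives the adjusted p ran to 0.106. The monosome value with the inhibitor lost its call without LPS LUL15, LUL16 or LUL18 or LPS+ET+KU LUL15 or LUL18 (adjusted p up to 0.0213). The further fall of LPS+ET+KU relative to LPS+ET was called in heavy polysomes (−1.20, SE 0.19, adjusted p = 0.00659), where leaving out any of 10 of the 12 gradients, all but the LUL16 gradients of LPS+ET and LPS+ET+KU, raised the adjusted p above 0.01 (up to 0.0296). It was −0.76 in light polysomes (SE 0.17, adjusted p = 0.0429; with the replicate block −0.74, adjusted p = 0.00769) and −0.47 in monosomes (SE 0.32, adjusted p = 0.586).

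Ticam1 was the other gene called within a class. It fell in monosomes after etoposide (log2 −0.95, SE 0.20, adjusted p = 0.00474). That call was lost when LPS LUL16, LUL17 or LUL18 or LPS+ET LUL15, LUL17 or LUL18 was left out (adjusted p up to 0.0169) and was kept with the block (−1.01, adjusted p = 8.46e-05). Apart from Cd180, the 8 others ran from −0.47 (Ly86) to 0.99 (Traf6) in that comparison and were not called. In heavy polysomes Tlr9 was −1.28 with the inhibitor against LPS (SE 0.35, adjusted p = 0.0204), called with the block at −1.35 (adjusted p = 6.93e-04).

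In monosomes 1, 0 and 1 of the 10 genes were called for LPS+ET against LPS, LPS+ET+KU against LPS+ET and LPS+ET+KU against LPS, where 9.52%, 0.213% and 5.96% of all genes were. In light polysomes the counts were 1, 0 and 1, beside 10.6%, 0.292% and 7.13%, and in heavy polysomes 1, 1 and 1, beside 9.69%, 0.572% and 7.95%. Where edgeR called none, in the comparison of LPS+ET+KU with LPS+ET, the unadjusted p was under 0.05 for 2 genes in monosomes and 1 in light polysomes, and 0 were called with DESeq2. With the replicate block the counts in monosomes were 5 (Cd180, Ly86, Traf6, Irak1 and Ticam1), 0 and 2 (Cd180 and Ly86), with backgrounds of 24.4%, 5.33% and 22.4%. In light polysomes they were 3, 1 and 3 (Cd180 in each, with Ly86 and Ticam1 against LPS), with 24.6%, 5.12% and 23.5%. In heavy polysomes they were 3 (Cd180, Ly86 and Ticam1), 1 (Cd180) and 4 (with Tlr9), with 20.4%, 3.05% and 20.5%.

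Where the mRNAs sat along the gradient separated the 10 genes more than the treatments did. For this profile each fraction library was scaled to CPM, since equal RNA concentrations were sequenced and library totals do not measure the mRNA of a fraction. Of the libraries, 12 held under 100000 counts, so a few counts can weigh heavily in the profile of a sparse gene. In LPS LUL17, 1 count of Traf6 gave 56.7 CPM in fraction 4 and 2 counts gave 61.9 CPM in fraction 12. The share in heavy polysomes is then the heavy part of the sum over the 13 fractions. In LPS gradients it was lowest for Irak1 at 28.4%, 29.5%, 30.8% and 23.7%, and highest for Tlr9 at 72.4%, 79.7%, 75.7% and 81.7%. These ranges lay on either side of the quartiles of all genes, 41.88% and 66.14%, around a median of 55.16%. The other 8 had means between 44.3% (Ly86) and 66.2% (Irak4). Irak1 mRNA peaked in fraction 7, the heaviest monosome fraction, in all 4 LPS gradients, at a mean of 518.4 ± 72.2 CPM, and was at 121.6 ± 26.5 CPM in fraction 13. Irak4, the kinase that acts just before IRAK1, peaked in fraction 13 with a mean of 53.0 ± 8.72 CPM. Ly96, Ly86 and Myd88, whose coding sequences are short, all peaked in fraction 11. Tlr9 was concentrated in the heaviest fractions, with 28.36% of its profile in fraction 15 alone and 52.6 ± 16.1 CPM there, from 14 to 34 counts a gradient.

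**Figure D3:**
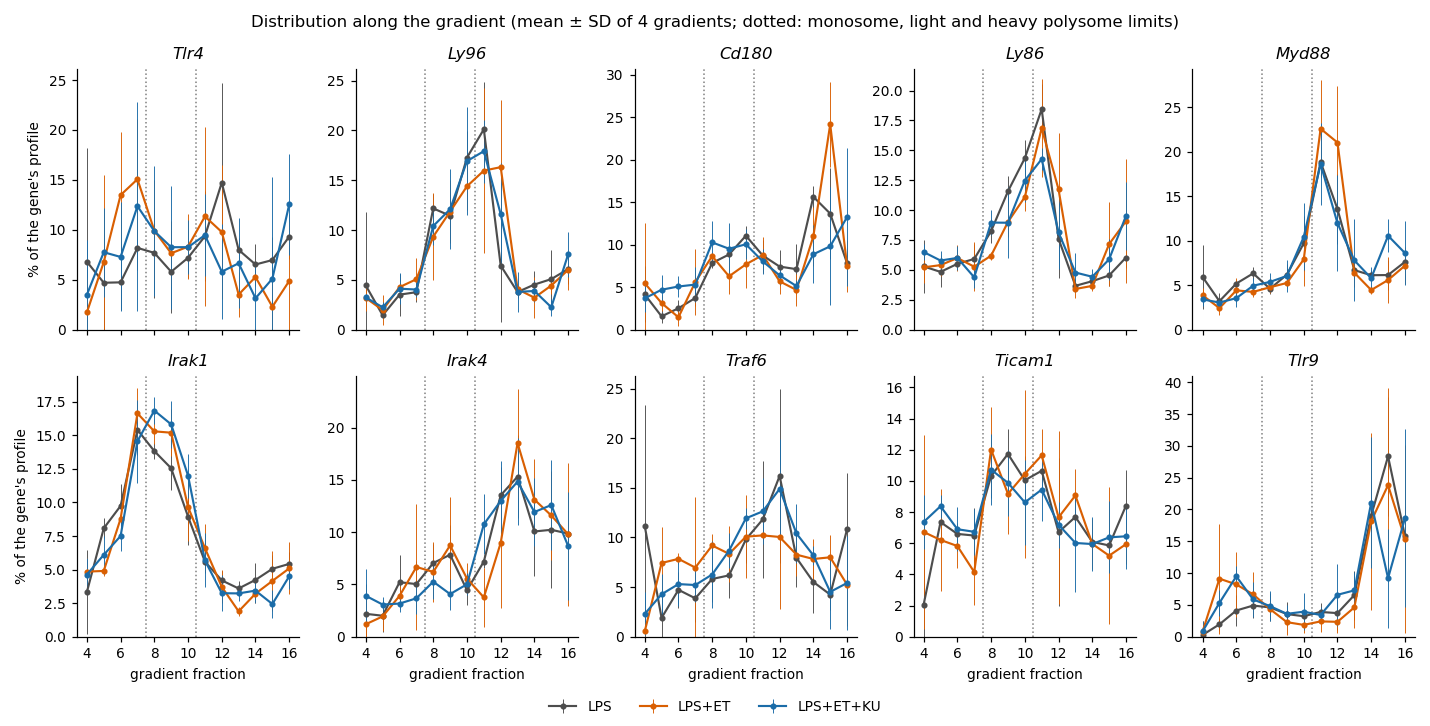
Percentage of each gene's profile (y axis) in gradient fractions 4 to 16 (x axis), mean ± SD of 4 gradients per treatment. Dotted lines mark the limits of monosomes, light and heavy polysomes. The mean of Irak1 peaks at fraction 7 or 8 and that of Tlr9 at 14 or 15 in each treatment, and the sparse Tlr4 profile has wide error bars.

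A longer coding sequence has room for more ribosomes, so each gene was set beside genes whose coding length was within 20% of its own. Irak1 codes for 710 amino acids in 2130 bases, and only 2.15% of 1346 genes of like length had a lower heavy share in LPS gradients (28.1% for Irak1, median 61.8% for the others). That length is of the principal transcript, and the part of other Irak1 transcripts in its heavy share was not tested. Ticam1, at 2196 bases, was also low at 45.4% against a median of 62.4%, with 14.3% of like genes lower. Tlr9, the longest at 3096 bases, stood at 77.4% against 66.5% and above 83.7% of its like genes, and Irak4 at 66.2% against 57.3% and above 76.2%. Tlr4, at 2505 bases, was below its like genes at 54.9% beside 64.1%, with 27.3% of them lower, from few counts. Myd88 had 58.9% beside 52.8%, with 69.2% lower. The remaining genes were nearer the middle: Cd180 had 60.3% beside 60.5%, Traf6 56.5% beside 58.2%, and the short Ly96 and Ly86 46.0% and 44.3% beside 40.4% and 41.1%. The heavy share of Tlr4 was 54.9% ± 8.45 with LPS, 37.1% ± 17.4 after etoposide and 42.7% ± 15.4 with the inhibitor (SD, n = 4), with overlapping ranges of 43.6% to 64.1%, 13.1% to 54.1% and 21.2% to 57.9%. The lowest value, 13.1%, was that of LPS+ET LUL16. The values by coding length are positions among 7565 genes and carry no test.

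**Figure D4:**
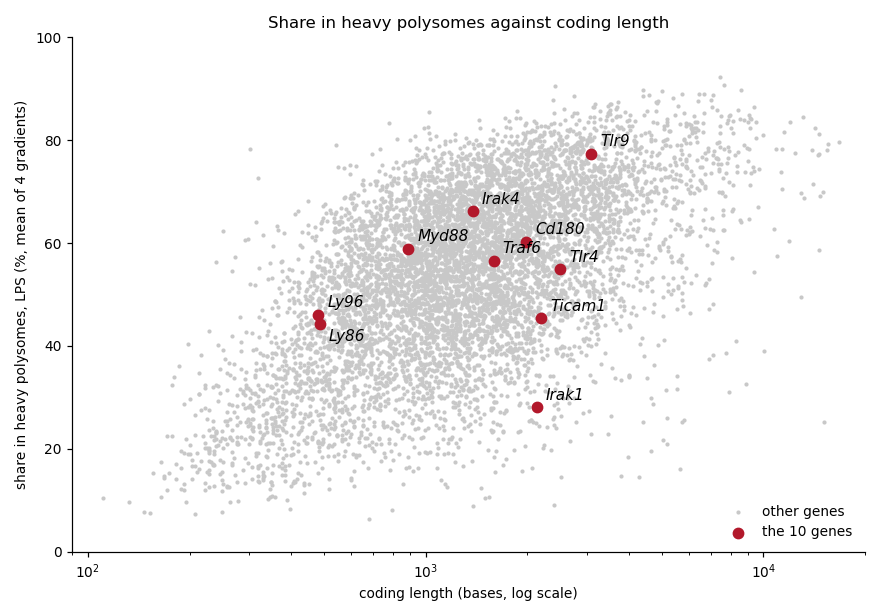
Share in heavy polysomes in LPS gradients (%, mean of 4, y axis) against coding length in bases (x axis, log scale) for 7565 genes (grey) and the 10 genes (red). Irak1 lies at 28.1% at 2130 bases, below nearly all genes of like length, and Tlr9 at 77.4% at 3096 bases, above 83.7% of its like genes.

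Heavy polysomes were then tested against monosomes within each treatment, with a term for each gradient. The ratio is relative to the average mRNA of these libraries. Light polysomes do not enter it, so a high ratio need not mean a high heavy share. In LPS gradients Ly96 had 40.9% of its profile in light polysomes and 13.1% in monosomes. Its heavy share there, 46.0%, was below the median of 55.16% over all genes. In LPS gradients Cd180 (log2 1.3, SE 0.22, adjusted p = 1.05e-05), Ly96 (1.05), Tlr9 (0.89), Irak4 (0.87) and Myd88 (0.63) were higher in heavy polysomes and Irak1 was lower (−1.75, SE 0.19, adjusted p = 5.73e-09). That is 6 of 10 genes, where 44.4% of all genes were called, 24.9% higher and 19.5% lower. After etoposide Irak4 (1.55), Myd88 (1.19), Cd180 (0.89) and Ly96 (0.83) were higher and Irak1 lower (−1.71, SE 0.20, adjusted p = 1.38e-08), 5 of 10 beside 44.1% of all genes, 26.2% higher and 18% lower. With the inhibitor Irak4 (1.3), Myd88 (1.22), Ly96 (1.03) and Traf6 (0.73) were higher and Irak1 lower (−1.68, SE 0.19, adjusted p = 1.26e-08), 5 of 10 beside 48.8%, 28% higher and 20.8% lower. Irak1 was low in heavy polysomes in all 3 treatments and in all 14 alternatives of each. DESeq2, whose size factors place the average mRNA elsewhere, called 3, 3 and 5 of the 10, Ticam1 with the inhibitor (−0.64, lower) among them. Of the calls named here, those of Irak4, Tlr9 and Myd88 in LPS and of Cd180 and Ly96 after etoposide were lost with DESeq2, as was that of Traf6 with the inhibitor.

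Leaving out a gradient moved some of these calls. In LPS, Irak4 lost its call without LPS LUL16 or LUL17, Tlr9 without LPS LUL16 or LUL18 and Ly96 without LPS LUL18, with adjusted p up to 0.0212, 0.0327 and 0.0124. Myd88 in LPS lost its call without any LPS gradient, LPS+ET LUL15 or LPS+ET+KU LUL17 (adjusted p up to 0.0495). After etoposide, Cd180 and Ly96 each lost their calls without LPS+ET LUL15, LUL17 or LUL18 (adjusted p up to 0.0827 and 0.0642), and with the inhibitor Traf6 did without LPS+ET+KU LUL17 (adjusted p = 0.0159). Without LPS+ET LUL16 Ticam1 was called lower with the inhibitor (−0.62, adjusted p = 5.68e-04, main value −0.48, adjusted p = 0.0304) and Traf6 higher in LPS (0.72, adjusted p = 0.00567, main value 0.71, adjusted p = 0.0170).

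The treatments moved positions by less. RiboLoad, the share of an mRNA in heavy polysomes, was compared on a logit scale with limma for genes averaging at least 100 counts a gradient, 9 of the 10 here, Tlr4 being left out. Of these, 0 of 9 passed in any comparison, where 0.312%, 0% and 0.863% of 8000 genes did. An unadjusted p under 0.05 was found for 3 genes for LPS+ET against LPS and for 1 in each of the others, and the edgeR test of the difference between heavy to monosome ratios, added after the data were seen, also called 0. Among the 9 genes Tlr9 had the largest differences from LPS, and Cd180 the largest for LPS+ET+KU against LPS+ET (−0.62, SE 0.26, adjusted p = 0.522), where Tlr9 was at −0.04. The heavy share of Tlr9 was 65.1%, 61.1%, 65.1% and 75.5% after etoposide and 63.8%, 68.1%, 73.7% and 59.1% with the inhibitor, overlapping the LPS range at its lower end in each. The logit differences from LPS were −0.77 (SE 0.27, adjusted p = 0.131) and −0.81 (SE 0.27, adjusted p = 0.0989).

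For Cd180 the heavy share overlapped that of LPS after etoposide and lay below it with the inhibitor. The heavy share was 56.8%, 58.4%, 66.8% and 59.4% with LPS. It was 68.7%, 60.8%, 67.5% and 50.1% after etoposide and 55.2%, 55.7%, 48.7% and 46.2% with the inhibitor. The logit difference of LPS+ET+KU from LPS was −0.53 (SE 0.26, adjusted p = 0.266), and by the edgeR difference of ratios it was −1.27 (adjusted p = 0.0187). Neither passed the threshold. By fraction, Cd180 was highest in fraction 14 with LPS (150.4 ± 20.1 CPM), in fraction 15 after etoposide (95.9 ± 22.7 CPM) and in fraction 16 with the inhibitor (26.2 ± 16.9 CPM). The LPS gradients themselves peaked in fractions 14, 14, 15 and 15, so in LUL17 and LUL18 the fraction of the peak was the same with LPS and after etoposide. In fraction 15 the etoposide gradients peaked in every pool, at 110.5, 111.2, 98.8 and 63.0 CPM from 99, 9, 48 and 28 counts. The fraction 16 value with the inhibitor rests on few counts, and the 4 gradients of that group peaked in fractions 16, 15, 16 and 8.

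**Figure D5:**
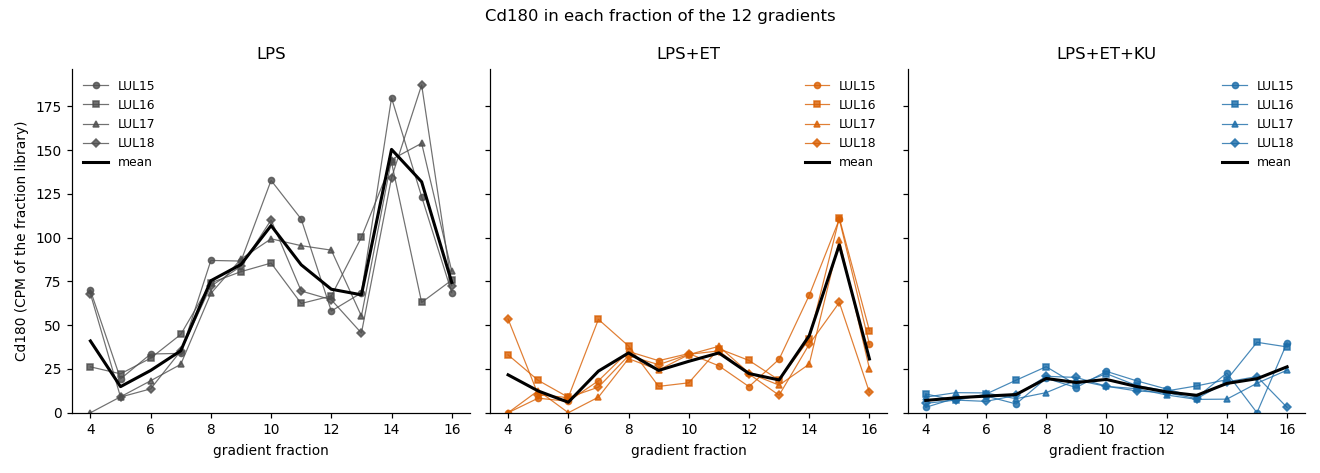
Cd180 (CPM of the fraction library, y axis, the same scale in all panels) in fractions 4 to 16 (x axis) of each gradient, a panel per treatment, with a symbol per pool and the mean in black. The mean peaks at 150.4 CPM in fraction 14 with LPS and at 95.9 CPM in fraction 15 after etoposide, and no fraction mean exceeds 26.2 CPM with the inhibitor.

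Other genes of the pathway were counted in 4 lists. Of 10 other Toll-like receptors 5 were tested. Tlr1, which pairs with TLR2, was lower than in LPS after etoposide (log2 −1.67, SE 0.20, adjusted p = 6.84e-05) and in LPS+ET+KU (−1.42, SE 0.20, adjusted p = 3.39e-04). Its level went from 35 ± 8.57 CPM to 11.9 ± 2.03 and 14.2 ± 1.92. Of 7 genes for LPS transfer and receptor trafficking 6 were tested, and Cd14, which hands LPS to TLR4, rose with the inhibitor against LPS (3.83, SE 0.51, adjusted p = 2.48e-04). Its levels were low throughout, with 5 to 13 counts per LPS gradient, at 0.546 ± 0.133, 2.32 ± 1.28 and 8.65 ± 5.42 CPM. Cd14 is known best from monocytes and macrophages. The summed level of 18 myeloid markers, 16 of them in the table, was 93.24 to 198.5 CPM with LPS, 140.7 to 294.2 after etoposide and 118.4 to 218.0 with the inhibitor. Of the 10 myeloid markers tested, edgeR called 0 in each comparison, with 2, 0 and 2 at an unadjusted p under 0.05, DESeq2 called 0, 0 and 1, and the replicate block 0, 0 and 1. Cd68, a macrophage marker, was at 3.26, 8.10 and 12.9 CPM in LPS, LPS+ET and LPS+ET+KU, and its difference of LPS+ET+KU from LPS was log2 1.88 (SE 0.48, adjusted p = 0.0141). This was the largest difference among the 10 tested. The others ran from −0.22 (Ly6c2) to 0.94 (Csf1r) in that comparison, and Lyz2 (−0.13) and C1qb (−0.13) were also lower. Summed dendritic cell markers (5 of 6 in the table) were at 10.65 to 13.22 CPM with LPS, 11.49 to 19.98 after etoposide and 16.36 to 32.12 with the inhibitor, so that the first and the last did not overlap. Only 2 of these markers were tested. Flt3 was not called in any comparison, at log2 0.03 after etoposide, 0.13 for LPS+ET+KU against LPS+ET and 0.16 for LPS+ET+KU against LPS. Zbtb46, a transcription factor of dendritic cells, rose in all 3 comparisons, by 1.09 after etoposide (SE 0.24, adjusted p = 0.00456), by 1.36 for LPS+ET+KU against LPS+ET (SE 0.22, adjusted p = 0.00840) and by 2.45 for LPS+ET+KU against LPS (SE 0.23, adjusted p = 2.22e-05). The first of these calls was lost in 7 and the second in 14 of 19 alternatives, and the last was kept in all 19. T and NK cell markers (8 of 12) summed to 87.5 to 378.7 CPM, and of the 5 tested edgeR called 0 in each comparison, with 1, 0 and 2 at an unadjusted p under 0.05, DESeq2 1, 0 and 0, and the replicate block 0, 0 and 1. The B cell markers summed to between 10350 and 23630 CPM, mostly from Ighm, the IgM heavy chain, with a mean of 12610 CPM in LPS. The parts of myeloid and dendritic cells in the Cd14 change were not tested. Of the myeloid markers, 1 was at 0 in all LPS gradients.

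Among 20 further adaptors and kinases 19 were tested. Ikbke, a kinase of the TRIF branch, was higher than in LPS after etoposide (log2 2.26, SE 0.27, adjusted p = 5.42e-05) and in LPS+ET+KU (1.4, SE 0.26, adjusted p = 0.00232). Its level went from 3.06 ± 0.460 CPM to 15.9 ± 3.64 and 8.83 ± 2.61. For LPS+ET+KU against LPS+ET it was lower and not called (−0.86, SE 0.25, adjusted p = 0.0930). Irf7, a transcription factor of the interferon response, was higher in LPS+ET+KU than in LPS (1.39, SE 0.32, adjusted p = 0.00777). Lyn, a Src family kinase of B cells, was lower than in LPS after etoposide (−1.46, SE 0.21, adjusted p = 3.03e-04) and in LPS+ET+KU (−1.58, SE 0.21, adjusted p = 2.77e-04). Its level went from 142.0 ± 9.04 CPM to 56.0 ± 7.82 and 51.3 ± 17.1. Btk and Traf3 fell by less in both comparisons with LPS, by 0.73 and 0.81 and by 0.74 and 0.77 on the log2 scale. Irf5 was lower after etoposide (−0.91) and Pik3ap1 in LPS+ET+KU (−0.72), each against LPS. Of 10 negative regulators 9 were tested. Socs1, an inhibitor of cytokine signalling, was higher than in LPS after etoposide (1.62, SE 0.32, adjusted p = 0.00226) and in LPS+ET+KU (1.35, SE 0.31, adjusted p = 0.00822). The deubiquitinase gene Cyld rose after etoposide (0.84, SE 0.18, adjusted p = 0.00448).

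In all, the 4 lists gave 1 of 5, 0 of 6, 5 of 19 and 2 of 9 called for LPS+ET against LPS where 12.7% of all genes were, and 1 of 5, 1 of 6, 6 of 19 and 1 of 9 for LPS+ET+KU against LPS, where 10.7% were. Between LPS+ET+KU and LPS+ET, where 0.455% of all genes were called, edgeR called 0 in each list, with 1, 1, 4 and 2 at an unadjusted p under 0.05, DESeq2 called 0, 1, 1 and 0, and edgeR with the replicate block 0, 1, 4 and 0. With the block the counts were 2, 2, 7 and 2 for LPS+ET against LPS and 2, 1, 7 and 2 for LPS+ET+KU against LPS, beside 25.9%, 6.1% and 26.8% of all genes for the 3 comparisons with the block. The calls of Cd14, Ikbke, Lyn and Tlr1 were kept in all 19 alternatives. Those of Btk were lost in 14 and 9 of them, of Irf7 in 11, of Pik3ap1 in 9, of Cyld in 7 and of Traf3 in 5 and 6. The Socs1 call was lost in 12 for LPS+ET+KU against LPS and in 1 after etoposide, and that of Irf5 in 1.

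The genes whose level followed a given gene most closely over the 12 gradients were sought among the 8000 genes averaging at least 100 counts a gradient, as a description. All 12 points share treatments and pools, so a like pattern says nothing of shared control. Cd180 was followed most closely by Kif22 (Pearson r = 0.978) and Nedd9 (0.971), Myd88 by Srf (0.977) and Cops8 (0.968), Traf6 by Zfp46 (0.965) and Zfp444 (0.962), Ly86 by Cuta (0.951) and Atf7 (0.907), and Ticam1 by 3110009E18Rik (0.948) and Pou2f2 (0.936). The partners of the kinases and of Ly96 were weaker: Irak1 had Stk40 (0.934), Irak4 had Bst2 (0.841) and Ly96 had Cwc15 (0.796).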

How the data were processed

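Lysates of C57BL/6Babr splenic B cells were separated on sucrose gradients, and 157 fraction libraries were sequenced. The authors deposited raw read counts of 3′ end tags per polyadenylation site and gene, deduplicated with molecular barcodes. The submitters' processing notes name TopHat2 2.0.12, HTSeq and DESeq2 1.6.3 with GRCm38 and Ensembl genes. Of the columns, 79 matched a single sample and 78 a treatment and fraction, with pools read from the column headers. A fraction 17 library of the LPS group was left out of all comparisons.

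Counts were summed over fractions 4 to 16 (ribosome association), 4 to 7, 8 to 10 and 11 to 16 of each gradient. Sums were tested with edgeR 4.0.16 (quasi-likelihood test, TMM, filterByExpr, treatment only, all 12 gradients, Benjamini-Hochberg adjusted p under 0.01). RiboLoad used limma 3.58.1 on the logit of the heavy share, with each library scaled to CPM and 0.5 added, for genes averaging at least 100 counts a gradient. Heavy polysomes were tested against monosomes by edgeR with a term for each gradient. Scripts ran in R 4.3.3 and were tested on simulated data. DESeq2 1.42.0, no filter, equal weight per fraction, the gradients compared alone, leaving out each gradient and the pool as a block were alternatives. Leaving out all gradients of pool LUL16 and the edgeR difference of ratios were added after the data were seen.

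Over 12227 genes the deviations of the 12 same-pool pairs correlated at 0.368 to 0.844 and those of the 36 other pairs at −0.655 to 0.349, so the pool was taken to pair the gradients. The members and lists were chosen with earlier results of these data known. All 10 members are named, and from the lists the genes past the threshold. Where a listed symbol had a pseudogene row (Ebf1), the protein-coding row was used. Equal RNA concentrations were sequenced, so fraction totals do not measure the mRNA of a fraction. The study's methods describe the 4 gradients as biological replicates. The genes closest in pattern to Tlr9 are not reported here.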

Additional observations from a re-analysis of the deposited data

Results flagged for a closer look

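Among 90 groups of 4 gradients (levels, heavy shares and mean fractions of the 10 genes), 5 had a gradient far from the other 3 by Dixon's test, and chance flags about 1 in 20 groups. Of these, 3 concern the LPS+ET gradient of pool LUL16, which also had the lowest heavy polysome share of all counts. There Myd88 was at 55.9 CPM against 218.8 to 251.7 in the other LPS+ET gradients, the heavy share of Ticam1 was 32.7% against 48.0% to 51.1%, and the mean fraction of Ticam1 was 8.71 against 10.29 to 10.52. Traf6 was at 9.76 CPM in LPS LUL17 against 13.1 to 13.4 in the other LPS gradients, and Tlr9 at 8.67 CPM in LPS+ET+KU LUL16 against 5.85 to 6.24. The heavy polysome share of LPS+ET LUL16 is one of sequenced counts and does not measure mRNA. Its libraries of fractions 11, 12, 15 and 16 held 54686, 33476, 80915 and 63879 counts. The part of these low library totals in the LUL16 values was not tested.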

How the results depend on the processing

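Alternatives were counted for ribosome association and heavy polysomes against monosomes of all 10 genes. Also counted were all other values of Cd180, Ticam1 in monosomes, and Tlr9 in heavy polysomes and RiboLoad. These values kept direction and side of the threshold in 1194 cases, lost a call in 57, gained a call in 29 and turned sign in 37, all of the last uncalled, and the cause was not tested. Calls gained by other genes within a class are not among the 29. The number of the 10 genes called for LPS+ET against LPS was 1, and 3 with the pool as a replicate block or without pool LUL16 and 2 at an adjusted p under 0.05. For LPS+ET+KU against LPS+ET it was 1, and 0 with no filter, with equal weight per fraction and with only the 8 gradients compared. For LPS+ET+KU against LPS it was 1, and 2 with DESeq2, with only the 8 gradients or without pool LUL16, 3 at an adjusted p under 0.05 and 4 with the block. In monosomes after etoposide DESeq2 called 2 and the block 5, and for LPS+ET+KU against LPS the block called 2. In light polysomes the block called 3, 1 and 3, and in heavy polysomes 3 after etoposide and 4 for LPS+ET+KU against LPS, where DESeq2 called 2. For heavy polysomes of LPS+ET+KU against LPS+ET no filter gave 0. DESeq2 called 3 in the heavy to monosome tests of LPS and of LPS+ET. The pool as a replicate block changed no call of the 10 genes other than those given in the report, and over all genes it called 3492, 823 and 3620 for ribosome association, where the fit without it called 1618, 58 and 1361. DESeq2 called 2391, 412 and 2263, equal weight 1059, 13 and 813, and only the 8 gradients 1652, 0 and 1059.

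Leaving out each gradient gave 1 to 2, 0 to 1 and 1 to 2 calls among the 10 for ribosome association, 0 to 2, 0 and 0 to 1 in monosomes, 1 to 2, 0 and 1 in light and 1 to 2, 0 to 1 and 1 to 3 in heavy polysomes, and 3 to 7, 3 to 5 and 4 to 6 for heavy polysomes against monosomes in LPS, LPS+ET and LPS+ET+KU.

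Uncalled log2 values that turned sign were small. In RiboLoad Cd180 after etoposide was 0.10, −0.13 with counts as deposited and −0.41 by the edgeR difference (−0.047 to 0.33 leaving out gradients), and Tlr9 of LPS+ET+KU against LPS+ET was −0.04, 0.34 by the edgeR difference (−0.20 to 0.16). In ribosome association Irak1 with the inhibitor against LPS was −0.040 without pool LUL16 (−0.014 to 0.115), Irak4 after etoposide 0.12 without pool LUL16 (−0.22 to 0.097) and with the inhibitor against LPS −0.052 to 0.26. Ly86 of LPS+ET+KU against LPS+ET was −0.088 with equal weight (−0.11 to 0.23). Ly96 after etoposide was 0.14 with equal weight and 0.097 without pool LUL16 (−0.17 to 0.019), with the inhibitor against LPS 0.088 and 0.027, and against LPS+ET −0.11 to 0.056. Ticam1 of LPS+ET+KU against LPS+ET was −0.060 to 0.36. In heavy polysomes against monosomes DESeq2 gave −0.12 for Cd180 (−0.11 to 0.22) and −0.0079 for Ly86 with the inhibitor, −0.014 for Ly86 with LPS and −0.074 for Ticam1 after etoposide (−0.13 to 0.24), and Traf6 after etoposide was 0.049 with no filter (−0.22 to 0.092). Of the 17 calls of named list genes, 248 alternatives kept them, 75 lost them and 0 turned sign. Tlr4, Tlr9 and Traf6, at 36 to 141, 54 to 244 and 90 to 380 counts per gradient, and the heaviest fractions of Cd180 with the inhibitor are limited by depth.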
